A study of Mus musculus with 24 samples.

Results

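Astrocytes build their intermediate filaments from a small set of proteins, and the 4 genes described here encode them: Gfap, Vim, Nes and Synm. Every probe set that the array annotation assigned to only 1 of these symbols was taken, and the brightest of them, on average over the 24 arrays, gave the gene's main value. This gave 4 of the 18193 genes measured and 11 of the 34945 probe sets with 1 symbol: 3 for Gfap, 3 for Vim, 3 for Nes and 2 for Synm. None of the 11 carried another symbol beside its own.

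The study measured RNA of mouse forebrain, the part left after removal of the olfactory bulb, the cerebellum and the brainstem, on Affymetrix arrays. TgCRND8 mice carry a transgene named APPSwe/Ind, a human amyloid precursor protein gene with the Swedish and Indiana mutations, and are a model of amyloid deposition in the brain. They were compared with littermates without the transgene, called controls here, and the mice were 70, 80 or 150 days old. Each of the 6 combinations of genotype and age had 4 mice with 1 array per mouse, which the titles number as biological replicates 1 to 4. The sex of the mice and the promoter that drives the transgene are not given in the sources used here.

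Filament proteins of this kind assemble into rope-like cables that give a cell its shape and mechanical strength. GFAP is the main filament protein of mature astrocytes, and its rise is the classical sign of a reactive astrocyte, the altered state astrocytes take near injury, inflammation or amyloid plaques. Vimentin copolymerises with GFAP in immature and reactive astrocytes and is also made by endothelial cells, fibroblasts and other cell types. Nestin is a filament protein of neural progenitors that reactive astrocytes can express again, and synemin is a large partner that cannot form filaments alone and joins those of vimentin or GFAP.

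Gfap lies on mouse chromosome 11 (chr11:102887336-102897200, minus strand, build GRCm38.p6), Vim on chromosome 2 (chr2:13574311-13582826, plus strand), Nes on chromosome 3 (chr3:87971093-87980451, plus strand) and Synm on chromosome 7 (chr7:67730161-67759742, minus strand). The RefSeq table of that build lists 2 mRNA transcripts for Gfap, 3 for Synm and 1 each for Vim and Nes. The 250 bases before the annotated start of Gfap and of Vim are printed because these were the 2 genes that differed between genotypes. They were taken from RefSeq's promoter table (GRCm38.p6; Gfap chr11:102897201-102897450, minus strand; Vim chr2:13574061-13574310, plus strand), run 5′ to 3′ and end at the base before the start, with capitals marking the matches to the motifs searched.
Gfap: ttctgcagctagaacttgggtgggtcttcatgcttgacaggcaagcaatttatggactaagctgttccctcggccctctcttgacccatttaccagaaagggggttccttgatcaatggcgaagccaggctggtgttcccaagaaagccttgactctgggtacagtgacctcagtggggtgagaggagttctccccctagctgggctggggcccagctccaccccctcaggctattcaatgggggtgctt
Vim: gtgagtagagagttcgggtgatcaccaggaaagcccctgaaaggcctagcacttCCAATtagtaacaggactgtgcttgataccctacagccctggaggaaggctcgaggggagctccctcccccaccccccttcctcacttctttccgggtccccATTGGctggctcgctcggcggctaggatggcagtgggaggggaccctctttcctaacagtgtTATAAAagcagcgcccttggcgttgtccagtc

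Motifs were searched on both strands, and none of them overlapped another in these windows. The Gfap window held no match to any of the 6, but bases farther upstream were not searched in any gene. TTCNNNGAA, the form bound by STAT proteins, matched in none of the 4 members' windows and in 7.02% of 32851 gene windows of the same length. TGANTCA, the AP-1 form, also matched in none of the 4 and in 6.75% of all windows. The palindrome of the NFI factors matched in none of the 4 and in 0.0365% of all. CCAAT, found in 33.8% of all windows, occurred in the Vim window at 196 to 192 bases before the start and, as its reverse complement ATTGG, at 94 to 90 bases, and in the Synm window on the reverse strand at 78 to 74 bases. TATAAA, the TATA box, was found in 12.4% of all windows and lay in the Vim window at 32 to 27 bases. GGGCGG, the GC box, was found in 32.7% of all and lay in the Nes window on the reverse strand at 73 to 68 and at 62 to 57 bases. Bases G and C made up 55.6% of the Gfap window, 58.4% of the Vim window, 58.8% of the Nes window and 70.0% of the Synm window, against a median of 52.4% over all windows.

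All values are log2 signals as deposited, so a difference of 1 is a doubling; the 24 array medians lay between 4.28 and 4.38. Array correlations were high throughout, with a median per array of 0.992 to 0.996. Forebrain markers were present: Snap25, a protein of synaptic vesicle release, read 11.7 in controls at day 150, the myelin gene Mbp 12.8 and the astrocyte water channel Aqp4 9.09. Xist, the RNA that silences 1 X chromosome in female cells, was low in 5 arrays, namely control replicate 4 at day 70, control replicates 1 and 4 at day 80 and TgCRND8 replicates 1 and 3 at day 80. The labels give no sex, and the members' main differences that include those arrays are also given without them. In bulk tissue, a change in the number of cells of a type and a change in RNA per cell cannot be told apart.

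At day 150, Gfap and Vim were higher in TgCRND8 forebrain than in control forebrain, while Nes and Synm did not pass the test. Gfap rose by 1.42 log2, or 2.67-fold (95% confidence interval 2.18 to 3.27), and Vim by 0.74 log2, or 1.67-fold (1.41 to 1.97). At days 70 and 80 none of the 4 genes passed the test. A gene passed where limma gave an adjusted p under 0.05, with p-values adjusted by the Benjamini-Hochberg method over all 18193 genes, and 0.121% of all genes did so at day 150 against 2 of these 4. These 4 genes and the lists compared below were chosen with earlier results of these data known. Counts over them are therefore a description, not a test of the set.

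**Figure D1:**
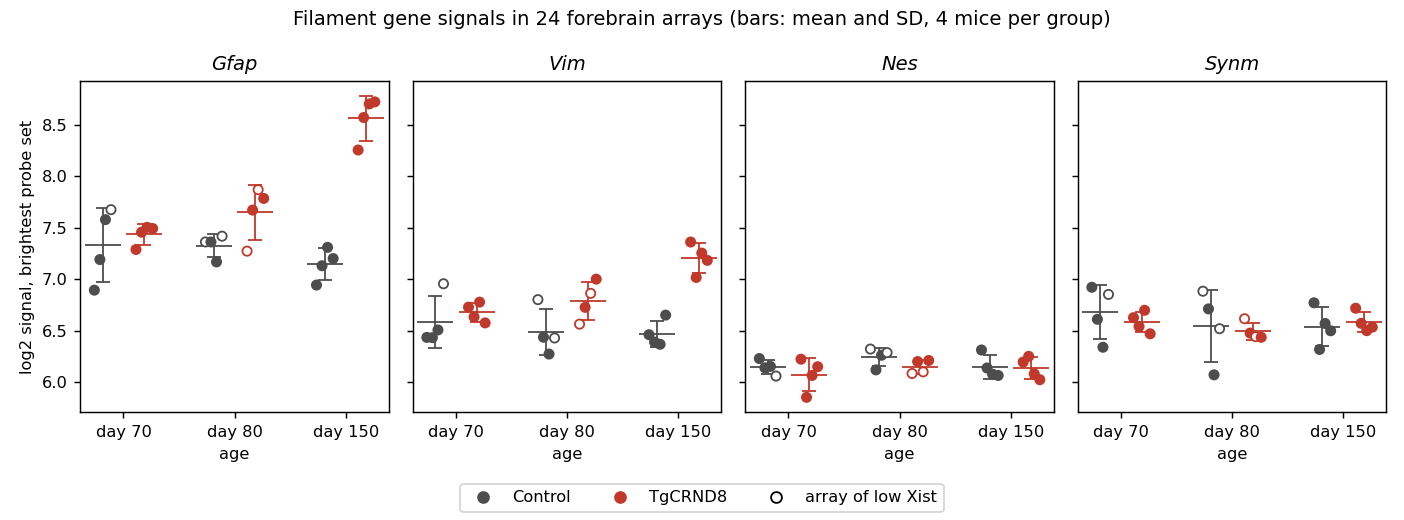
Log2 signal of the brightest probe set of Gfap, Vim, Nes and Synm in each of the 24 arrays, by age and genotype; horizontal lines and bars give the group mean and SD of 4 mice, and open circles mark the 5 arrays of low Xist. The TgCRND8 arrays of day 150 lie at 8.26 to 8.72 for Gfap and 7.02 to 7.36 for Vim, above the control arrays of that age, while the groups overlap for Nes and Synm.

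Gfap had a mean of 7.58 over the 24 arrays, at the 80.0th percentile of gene means, although probe sets of different genes cannot be compared for amount of RNA. In control mice of day 150 Gfap read 6.94, 7.13, 7.31 and 7.20 in replicates 1 to 4. In TgCRND8 mice of day 150 it read 8.26, 8.57, 8.70 and 8.72. The lowest transgenic array thus lay well above the highest control array. The group means were 8.56 (SD 0.216, n = 4) and 7.15 (SD 0.154, n = 4), and the difference of 1.42 had a standard error of 0.141 (adjusted p = 2.14e-06 by limma). It ranked 2 by p among all genes tested.

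Vim, whose protein shares filaments with GFAP, read 6.46, 6.39, 6.37 and 6.65 in control replicates 1 to 4 at day 150. In the TgCRND8 mice of that age it read 7.36, 7.02, 7.25 and 7.18. Again every transgenic array lay above every control array, as was so for 1.53% of all genes in this direction at this age. The means were 7.20 (SD 0.144, n = 4) and 6.47 (SD 0.129, n = 4), a difference of 0.74 with a standard error of 0.119 (adjusted p = 0.00258 by limma; rank 11 by p). The 2 genes did not order the transgenic mice alike: TgCRND8 replicate 1 had the lowest Gfap and the highest Vim of its group.

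Nes read 6.31, 6.14, 6.08 and 6.07 in the control mice of day 150 and 6.20, 6.25, 6.08 and 6.02 in the TgCRND8 mice. The 2 groups covered nearly the same range. The difference was -0.01 log2 with a 95% confidence interval of -0.18 to 0.16, which leaves room for a fold between 0.885 and 1.11. Its missing the threshold does not show that nestin RNA was equal in both genotypes, but a rise as large as that of Vim lies outside this interval.

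Synm read 6.77, 6.32, 6.57 and 6.50 in the control mice of day 150 and 6.72, 6.57, 6.50 and 6.53 in the TgCRND8 mice. The arrays overlapped here too. The difference was 0.04 with an interval of -0.23 to 0.31, a fold between 0.852 and 1.24. The interval of Synm was wider than that of Nes because its arrays scattered more within the 6 groups of all ages, over which the fit pools the spread. The residual SD was 0.206 for Synm and 0.105 for Nes, against 0.221 for Gfap, 0.180 for Vim and a median of 0.140 over all genes.

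The probe sets of a gene read different stretches of its RNA and so give a partial check on one another. All 3 Gfap probe sets rose at day 150, where 0.0711% of all 45037 probe sets passed when each was tested on its own. Beside the brightest, 1426508_at, probe set 1426509_s_at went from 6.54 (SD 0.0231) to 8.18 (SD 0.188), a difference of 1.64 (standard error 0.146, adjusted p = 3.84e-07 by limma). Probe set 1440142_s_at went from 5.43 (SD 0.111) to 6.89 (SD 0.187), a difference of 1.46 (standard error 0.169, adjusted p = 4.38e-05 by limma). The first 2 were designed from the same source sequence and are not independent of each other, while the third came from another.

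The Vim probe sets also rose together at day 150. Probe set 1450641_at gave the 0.74 above (adjusted p = 0.00441 by limma over all probe sets). Probe set 1438118_x_at went from 6.02 (SD 0.224) to 6.70 (SD 0.0666), a difference of 0.68 (adjusted p = 0.0120 by limma). Probe set 1456292_a_at, the dimmest of the 3, went from 4.65 (SD 0.339) to 5.66 (SD 0.0896), a difference of 1.01 (standard error 0.190, adjusted p = 0.0277 by limma). The last 2 share a source sequence. In all 6 probe sets of Gfap and Vim the transgenic and control arrays of day 150 did not overlap. With 1 value per gene this held for 1.53% of all genes in this direction. The share over all probe sets was not counted.

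The remaining probe sets of Nes and Synm did not pass at any age. At day 150 probe sets 1418289_at and 1453997_a_at of Nes each differed by -0.09, and probe set 1455610_at of Synm by 0.06. The dimmest Nes probe set, 1453997_a_at, had group means of 2.67 to 2.84, under the lower quartiles of the arrays, which were 3.15 to 3.32, so it says little about nestin RNA. The suffixes s, x and a mark probe sets that can bind more than 1 transcript, which applies to 2 of the Gfap, 2 of the Vim and 1 of the Nes probe sets.

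**Figure D2:**
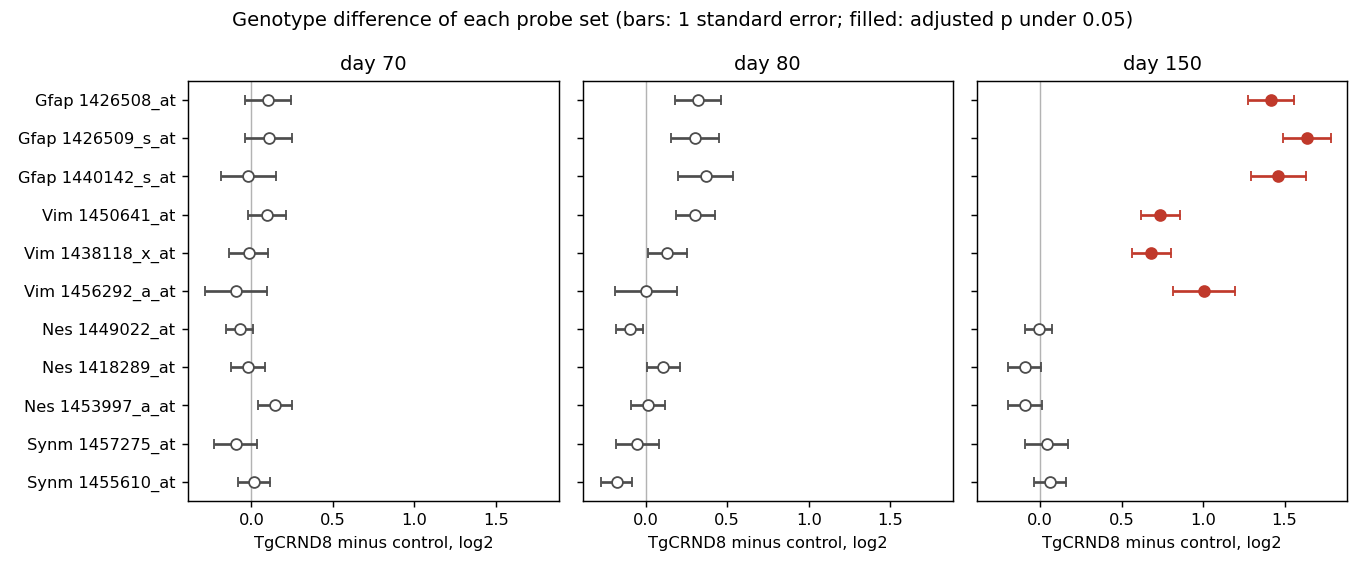
Difference between TgCRND8 and control (log2, x axis) of each of the 11 probe sets at days 70, 80 and 150; bars are 1 standard error and filled points passed at an adjusted p under 0.05 over all probe sets. At day 150 the 3 Gfap and 3 Vim probe sets lie between 0.68 and 1.64 and the Nes and Synm probe sets between -0.09 and 0.06.

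At day 70 the percentage of genes that passed was 0.00 and no filament gene passed or had an unadjusted p under 0.05 by limma (591 of all genes had). Gfap read 6.89, 7.19, 7.58 and 7.68 in control replicates 1 to 4 and 7.29, 7.46, 7.50 and 7.49 in the TgCRND8 mice. The controls scattered on both sides of the narrow transgenic group, with SDs of 0.361 and 0.10. The difference was 0.10 (95% confidence interval -0.19 to 0.39, adjusted p = 0.9997 by limma). Its direction rested on single arrays: leaving out 1 array gave -0.05 to 0.21, with -0.05 without control replicate 1. Vim read 6.44, 6.43, 6.51 and 6.96 in the controls and 6.73, 6.63, 6.78 and 6.58 in the TgCRND8 mice, a difference of 0.10 (-0.15 to 0.34). The high control was replicate 4, an array of low Xist that also had the highest Gfap of its group. Without the low-Xist arrays the day 70 differences were 0.21 for Gfap and 0.22 for Vim, and neither passed.

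The other 2 members did not pass at day 70 either. Nes read 6.23, 6.14, 6.15 and 6.06 in the controls and 6.22, 5.85, 6.07 and 6.15 in the TgCRND8 mice, a difference of -0.07 (95% confidence interval -0.24 to 0.09). Synm read 6.92, 6.61, 6.34 and 6.85 in the controls and 6.63, 6.54, 6.70 and 6.47 in the TgCRND8 mice, a difference of -0.10 (-0.37 to 0.18). In both genes the 2 genotypes overlapped.

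At day 80 again 0.00% of genes passed, and Gfap and Vim were each higher by about the same amount without passing. Gfap read 7.36, 7.36, 7.17 and 7.42 in control replicates 1 to 4 and 7.27, 7.67, 7.87 and 7.79 in the TgCRND8 mice. Replicates 2 to 4 of the transgenic mice lay above every control, and replicate 1 lay among the controls. The difference was 0.32, or 1.25-fold (95% confidence interval 0.03 to 0.61 log2), with an unadjusted p of 0.0307 and an adjusted p of 0.9996 by limma. Vim read 6.80, 6.44, 6.27 and 6.43 in the controls and 6.56, 6.73, 6.86 and 7.00 in the TgCRND8 mice, a difference of 0.30, or 1.23-fold (0.06 to 0.55 log2; unadjusted p = 0.0168, adjusted p = 0.9996 by limma). Genes higher in TgCRND8 at an unadjusted p under 0.05 were 2.49% of all genes at this age.

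The low-Xist arrays bear on day 80 most, since 2 of 4 arrays of each genotype were among them. Without them the difference was 0.46 for Gfap (adjusted p = 0.203) and 0.51 for Vim (adjusted p = 0.0672 by limma in both), on 2 arrays per genotype. With the Xist level as a covariate and all arrays kept, the values were 0.32 and 0.30. The probe sets of Vim were not alike at this age: they gave 0.30, 0.13 and 0.00, whereas those of Gfap gave 0.32, 0.30 and 0.37.

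Nes at day 80 read 6.32, 6.12, 6.26 and 6.29 in the controls and 6.08, 6.20, 6.10 and 6.21 in the TgCRND8 mice, a difference of -0.10 (95% confidence interval -0.27 to 0.07). Synm read 6.88, 6.71, 6.07 and 6.52 in the controls and 6.62, 6.48, 6.44 and 6.44 in the TgCRND8 mice, a difference of -0.05 (-0.33 to 0.22). The controls of Synm were the most scattered of its 6 groups, with an SD of 0.350. Neither gene separated the genotypes, and without the low-Xist arrays the differences were 0.01 for Nes and 0.06 for Synm, turned in sign and not past the threshold.

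Ordered by their means, the groups stood alike for Gfap and Vim: TgCRND8 at day 150, at day 80 and at day 70, then the controls of day 70, day 80 and day 150. For Gfap the means were 8.56, 7.65, 7.44, 7.34, 7.33 and 7.15, and for Vim 7.20, 6.79, 6.68, 6.58, 6.49 and 6.47. Only the step between the first 2 groups left the arrays of neighbours apart, by 0.91 in Gfap and 0.42 in Vim between means. All lower neighbours overlapped in both genes. The 6 means of Nes lay between 6.07 and 6.25 and those of Synm between 6.49 and 6.68, and every neighbour in their order overlapped.

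Whether the genotype difference itself changed with age was tested as day 150 against the mean of days 70 and 80. For Gfap it grew by 1.21 log2 (standard error 0.173, adjusted p = 0.00208 by limma), and 0.0110% of all genes passed this test. Without the low-Xist arrays it was 1.08 for Gfap (adjusted p = 0.0173) and 0.37 for Vim (adjusted p = 0.279, both by limma). For Vim it was larger by 0.54 (95% confidence interval 0.24 to 0.84, unadjusted p = 0.00105), which did not pass (adjusted p = 0.563 by limma). The same quantity was 0.08 for Nes and 0.12 for Synm. Between days 70 and 80 the difference changed by 0.22 for Gfap (-0.19 to 0.63) and by 0.21 for Vim (-0.14 to 0.55), and neither passed, as for all genes (0.00%; 481 had an unadjusted p under 0.05 by limma).

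Within TgCRND8 mice, Gfap rose between day 70 and day 150 by 1.13 log2, or 2.19-fold (adjusted p = 0.000186 by limma; 0.0879% of genes passed). Between day 80 and day 150 it rose by 0.91, or 1.88-fold (adjusted p = 0.00722 by limma; 0.0220% of genes passed). The second rise was no longer past the threshold without TgCRND8 replicate 4 of day 150 (0.86, adjusted p = 0.0742) or when only those 8 arrays were fitted (adjusted p = 0.118). Without the low-Xist arrays the second rise was 0.84 (adjusted p = 0.0164 by limma). Vim was higher at day 150 than at day 70 by 0.53 (0.28 to 0.77, adjusted p = 0.120 by limma) and than at day 80 by 0.42 (0.17 to 0.66, adjusted p = 0.503 by limma). Its arrays did not overlap in either comparison, which held for 1.22% and 1.10% of all genes in this direction. The 0.53 passed in the fit of only those 8 arrays (adjusted p = 0.0264), with array weights (0.0243) and without the low-Xist arrays (0.0131).

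In control mice none of the 4 genes passed between ages. From day 70 to day 150 Gfap differed by -0.19 (95% confidence interval -0.48 to 0.10, adjusted p = 0.749 by limma), Vim by -0.12, Nes by 0.00 and Synm by -0.14, while 0.0220% of all genes passed. These comparisons within a genotype share the day 150 arrays with the genotype comparison, so they do not add independent evidence for it.

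Averaged over the 3 ages, Gfap was higher in TgCRND8 by 0.61 (adjusted p = 0.000548 by limma) and Vim by 0.38 (adjusted p = 0.0301 by limma), where 0.0385% of all genes passed. The call for Vim was not firm: it was lost in 17 of 24 fits that left out 1 array, with adjusted p up to 0.0877, and over all probe sets (0.0516). It passed with the replicate block (adjusted p = 0.0163) and, without the low-Xist arrays, at 0.49 for Vim and 0.70 for Gfap (adjusted p = 0.000284 for each, by limma). Nes differed by -0.06 (-0.16 to 0.04) and Synm by -0.04 (-0.19 to 0.12).

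**Figure D3:**
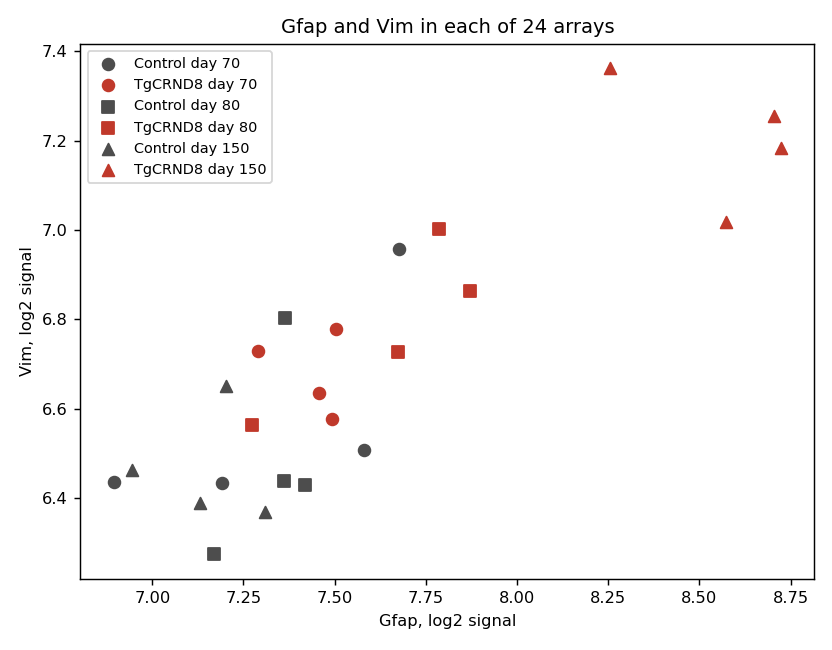
Gfap (x axis) against Vim (y axis), log2 signal of the brightest probe set in each of the 24 arrays, coloured by genotype and shaped by age. The 4 TgCRND8 arrays of day 150 lie above all other arrays in both genes, at 8.26 to 8.72 and 7.02 to 7.36 (the next highest Vim is 7.00), and the array with the lowest Gfap among them has the highest Vim.

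No gene on the list of other intermediate filament genes passed between genotypes. Of 17 measured, which encode neurofilaments, lamins, keratins and muscle or lens filaments, 0 passed at day 150, 8 were higher in TgCRND8 and the median difference was -0.0093 log2. Over all genes 9122 of 18193 were higher and the median was 0.0004. Nefl, the light neurofilament chain of axons, differed by 0.00 (11.03 against 11.02), and Nefm, the medium chain, by 0.18 (9.40 against 9.22). By limma 1 of the 17 had an unadjusted p under 0.05 at this age, and it was lower. At days 70 and 80 also 0 passed (2 and 1 at an unadjusted p under 0.05), with medians of -0.0077 and 0.0323.

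Listed genes for proteins that link, fold, phosphorylate or break down filaments did not pass either. Of 21 listed 17 were measured and 10 were higher at day 150, beside 50.1% of all genes. Of the 17, 0 passed, 0 had an unadjusted p under 0.05 by limma, and the median was 0.0185. Plec, which encodes plectin, the linker that ties intermediate filaments to other parts of the cytoskeleton, differed by 0.08 (95% confidence interval -0.49 to 0.65). Dst, the gene of another linker of this family, differed by 0.04 (-0.24 to 0.33).

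Signals known to drive Gfap transcription in astrocytes include cytokines of the interleukin-6 family acting through STAT3, TGF-beta and BMP acting through SMAD proteins, and Notch with the NFI factors. Over all genes 50.1% were higher at day 150 and 0.121% passed. Of 25 measured genes of these routes, 16 were higher at day 150, with a median of 0.0449, and 1 passed. That gene was Osmr, the oncostatin M receptor, which rose by 0.65 (standard error 0.101; 3.99, SD 0.217, against 3.34, SD 0.114; adjusted p = 0.00258 by limma). Its signal was dim, with the control mean near the lower quartile of the arrays. The arrays of the 2 genotypes did not overlap, as was so for 1.53% of all genes in this direction. At an unadjusted p under 0.05 by limma, 5 of the 25 were higher and 1 lower, against 4.38% of all genes in either direction. Stat3 itself differed by 0.26 (95% confidence interval 0.04 to 0.48, adjusted p = 0.9995 by limma), chosen here after its value was seen. At day 70, 5 of the 25 were higher, beside 48.7% of all genes, and at day 80, 14 were, beside 50.9%. At either age 0 passed, and 3 and 0 had an unadjusted p under 0.05 by limma, as did 3.25% and 3.77% of all genes.

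The list of reactive astrocyte genes held 29 names, of which 27 were measured and 1, Osmr, is shared with the signalling list as a passing gene. At day 150, 18 of the 27 were higher, the median was 0.0605 and only Osmr passed. Over all genes 50.1% were higher, the median was 0.0004 and 0.121% passed. At an unadjusted p under 0.05 by limma 7 were higher and 1 lower, where the share of all genes in either direction was 4.38%. Serpina3n, a secreted protease inhibitor that is among the strongest reactive astrocyte markers, was chosen after its value was seen, as was Lcn2. Serpina3n read 8.39 (SD 0.0808) against 8.10 (SD 0.0512), higher by 0.29, and did not pass (adjusted p = 0.182 by limma). Its arrays did not overlap, as was so for 1.53% of all genes in this direction. Lcn2, a secreted iron-trafficking protein that is another such marker, differed by -0.10 at a dim 2.75. Within TgCRND8 mice from day 70 to day 150, 20 of the 27 were higher, beside 48.8% of all genes. Of the 27, 2 passed, where 0.0879% of all genes did: Osmr by 0.75 (adjusted p = 0.000514) and Cd14, a co-receptor for bacterial lipopolysaccharide, by 0.54 (adjusted p = 0.0470, both by limma). In the same comparison 12 of 14 microglial genes were higher and 3 passed. The cell type in which Cd14 RNA rose was not tested.

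Genes used as markers of resting astrocytes did not pass at day 150. Of 18 measured, 6 were higher at day 150, 0 passed, 1 had an unadjusted p under 0.05 by limma, and the median was -0.0143. Over all genes 50.1% were higher, 0.121% passed and 4.38% had an unadjusted p under 0.05 by limma. Aqp4 read 9.25 (SD 0.196) against 9.09 (SD 0.126), a difference of 0.16 (95% confidence interval -0.04 to 0.36), and Aldh1l1, a folate enzyme used as a general astrocyte marker, read 7.06 in both genotypes (-0.00; -0.16 to 0.16). The mean of the 18 genes per array, each gene centred on its own mean, was -0.00741 (SD 0.0551, n = 4) in TgCRND8 and 0.00438 (SD 0.0716, n = 4) in controls at day 150 (two-sided exact permutation p = 0.800, 0.800 after adjustment over 3 ages). The differences were -0.068 at day 70 (exact p = 0.171, adjusted 0.514) and -0.033 at day 80 (exact p = 0.600, adjusted 0.800), where 0.0286 is the smallest p that 4 against 4 mice allow. Reached at 1 age alone, that p would not stay under 0.05 after adjustment over 3 ages. The adjusted test could therefore not have shown a difference limited to day 150, whatever its size.

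Markers of another glial cell type moved with Gfap and Vim. Of 14 measured microglial genes all 14 were higher in TgCRND8 at day 150, 7 passed and the median was 0.545. Over all genes 50.1% were higher, 0.121% passed and the median was 0.0004. This list, like the others, was chosen with earlier results of these data known, so its counts are a description. Cst7, the protease inhibitor cystatin F, rose by 1.59 and Tyrobp, an adaptor of microglial receptors, by 1.31. Cst7 read 2.96 in the controls, under the lower quartile of the arrays (3.15 to 3.32), and its fold is therefore poorly fixed. C1qa, a chain of the first complement component, rose by 0.54 and Ptprc, the leukocyte surface protein CD45, by 0.71. The mean of the 14 genes per array lay between -0.261 and -0.142 in the controls of day 150 and between 0.300 and 0.477 in the TgCRND8 mice, and between -0.163 and 0.116 in the 16 arrays of days 70 and 80 where the same genotypes did not separate. Vim RNA is also found in microglia and blood vessels, and the part of such cells in its rise was not tested.

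The markers of other cells that can express vimentin or nestin did not pass. Of 11 endothelial genes 0 passed at day 150 and 6 were higher, beside 0.121% and 50.1% of all genes. Their median was 0.011, with Cldn5, a tight junction protein, at 0.14 and Pecam1, an endothelial adhesion molecule, at -0.17. Of 11 mural cell genes 0 passed (median 0.0368), with the receptor gene Pdgfrb at 0.24 and Rgs5 at 0.04. Of 10 genes of meninges and fibroblasts 0 passed (median -0.0029), with the collagen genes Col1a1 at 0.08 and Col1a2 at -0.02. Of 10 genes each of ependyma with choroid plexus and of progenitors with newborn neurons 0 passed (medians -0.0871 and -0.0306), and the same held for 7 neuron and 7 oligodendrocyte genes (0.0112 and 0.0492). At unadjusted p under 0.05 by limma these 7 lists also held 0 genes at day 150.

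**Figure D4:**
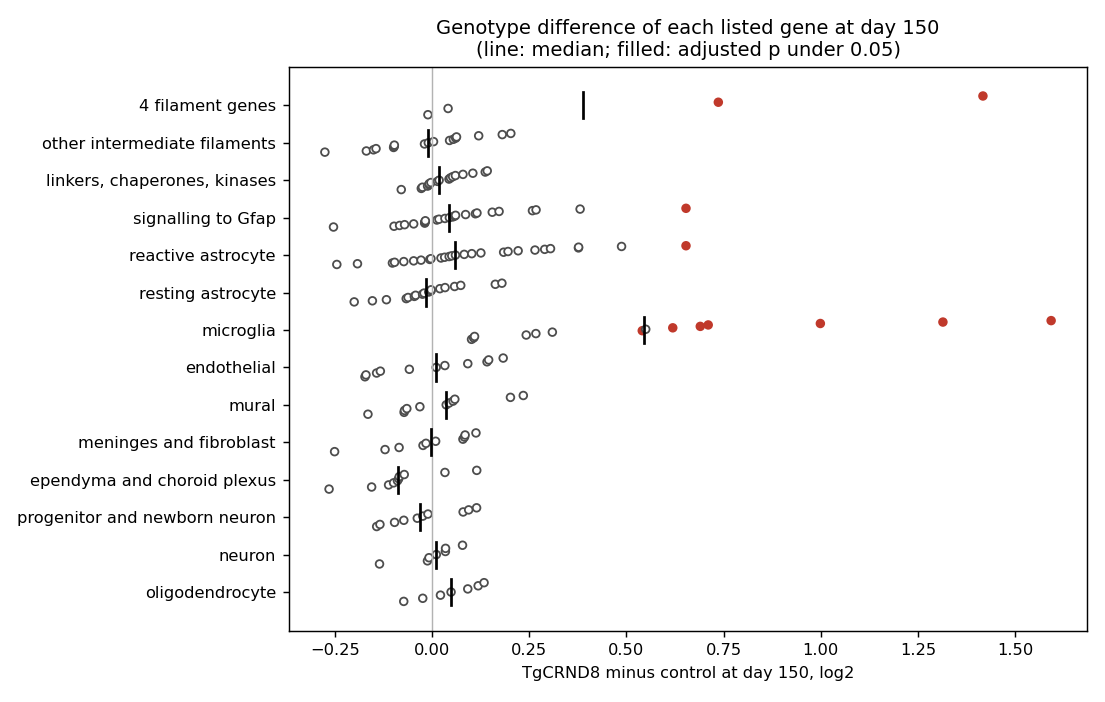
Genotype difference at day 150 (log2, x axis) of every measured gene of the 4 filament genes and 13 comparison lists; vertical bars are list medians and filled points passed at an adjusted p under 0.05 over all genes. Gfap (1.42) and Vim (0.74) lie apart from Nes and Synm, 7 microglial genes passed, and Osmr (0.65) appears in both the signalling and the reactive astrocyte list.

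The genes whose pattern was most like a member's were found by the root mean square difference over the 24 arrays after each gene was centred on its own mean, in log2 units. Nearest to Gfap were Tyrobp (0.263), Cst7 (0.284), the lysozyme gene Lyz1 (0.288), Cd68, which encodes a lysosomal protein of phagocytes (0.292), and Vim (0.293), against a median of 0.523 over all genes. All 5 passed at day 150, but the same arrays chose them, so this is no separate support. At day 80 their differences ranged from 0.06 for Cst7 to 0.42 for Lyz1 beside 0.32 for Gfap. Cst7 was near or under the lower quartile of the arrays in every group but the TgCRND8 mice of day 150, so its small differences at days 70 and 80 say little. The measure weighs the 4 high arrays of day 150 most and is a description with no test.

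Nearest to Vim were Ctsc (0.153), Ctsz (0.154), C1qa (0.173), Gusb (0.175) and Ctss (0.182), against a median of 0.327 over all genes. Ctsc, Ctsz and Ctss encode lysosomal cathepsins and Gusb the lysosomal enzyme beta-glucuronidase. At day 150 they differed by 0.71, 0.48, 0.54, 0.53 and 0.56 in that order, and all but Gusb (adjusted p = 0.203 by limma) passed. The same arrays chose these genes, so their day 150 differences are no separate support. Gfap ranked 2445 from Vim on this scale, since the measure grows with the size of the changes, which were larger in Gfap.

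**Figure D5:**
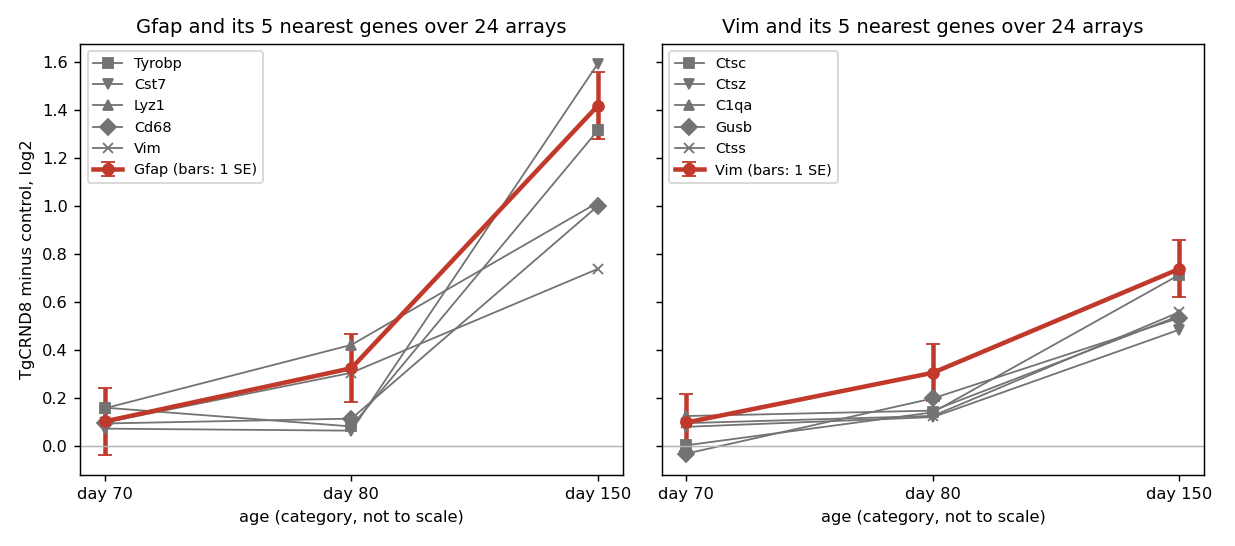
Genotype difference (TgCRND8 minus control, log2, y axis) at the 3 ages for Gfap with its 5 nearest genes and for Vim with its 5 nearest genes; bars on the member are 1 standard error, and ages are categories, not to scale. Gfap goes from 0.10 to 0.32 and 1.42 and Vim from 0.10 to 0.30 and 0.74; Tyrobp is at 0.16 and 0.08 at days 70 and 80.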

How the data were processed

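Per the labels, forebrain RNA of 24 mice was amplified to biotin-labelled cRNA for Affymetrix arrays. The authors deposited 1 table of log2 signals for 45101 probe sets, and its normalization, background correction and summary method are not given in the sources used here. All columns were matched to samples through the labels (0 left over). After 64 control probe sets were set aside, 34945 probe sets had 1 symbol in the platform annotation of 2016, 932 had several and 9160 had none.

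Genes were represented by their brightest probe set on average, and 18193 entered 1 limma fit of 6 group means (18 residual and 7.47 prior degrees of freedom). Contrasts compared genotypes at each age, their mean and change, and ages within genotype. The 4 members and 13 comparison lists (197 different genes, members included, of which 185 were measured) were chosen with earlier results of these data known. All members are named; of each other list, up to 4 genes that passed or else the first 2 measured; and 5 nearest genes per passing member. Exceptions are marked in the text.

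Replicate numbers recur in every group. Deviations from group means of same-numbered TgCRND8 and control arrays correlated at 0.137 to 0.256 at day 150 (all 4 pairs over 0.1, each closest to its own number) but at -0.321 to 0.292 at day 70 and -0.231 to 0.479 at day 80. At each of days 70 and 80, 2 of 4 pairs were closest to their own number, so with day 150 this held for 8 of 12. Pairs over 0.1 numbered 2 at day 70 and 3 at day 80. By this check alone, likeness by number was clearest at day 150 but was not confined to it. Gfap was lowest in replicate 1 in both groups of day 70, both of day 150 and the TgCRND8 mice of day 80. The labels state no pairing, what a number marks is not known, and the main fit did not use it. P-values cover the spread between 4 mice per group; a genotype difference at day 150 had a standard error of 0.0977 log2 in the median gene.

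Alternatives were quantile normalization, median centring, the probe sets of a gene averaged or all tested, the dimmest 40% of genes omitted, trend with robust settings, array weights, a replicate block, an Xist covariate, fits of the compared groups only, and fits without 1 array. Leaving out the 5 low-Xist arrays and the block within day 150 were added after the data were seen. Fits used limma 3.58.1 in R 4.3.3, and figures matplotlib 3.10.9 in Python 3.11.15.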

Additional observations from a re-analysis of the deposited data

Results flagged for a closer look

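In control mice of day 70, Vim of replicate 4 read 6.96 while the other 3 mice read 6.43 to 6.51. The gap to its nearest neighbour was 0.857 of the group's range, above Dixon's 95% limit for 4 samples, in 1 of 24 combinations of gene and group examined, where chance gives about 1 in 20. This mouse is also 1 of the 5 with low Xist, and without those arrays the day 70 difference in Vim was 0.22. The genotype difference in Gfap differed between ages: it was larger at day 150 than the mean of days 70 and 80 by 1.21 log2 (adjusted p = 0.00208 by limma, 4 mice per group), with every TgCRND8 array of day 150 above every control array.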

How the results depend on the processing

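At day 150 Gfap (1.39 to 1.51) and Vim (0.71 to 0.81) passed under all 12 alternatives and in all 8 fits without 1 array (1.35 to 1.52 and 0.68 to 0.80). Under the replicate block Gfap had an adjusted p of 9.32e-09 and Vim of 0.00188, and under the replicate block within day 150 3.90e-06 and 0.00387 (limma); the block changed no call of a member. For the mean of 3 ages the members that passed went from 2 to 1 under median centring (Vim 0.37, adjusted p = 0.0555), the mean of all probe sets (Vim 0.32, adjusted p = 0.381) and all probe sets (Vim 0.38, adjusted p = 0.0516); without 1 array they were 1 to 2 (Vim 0.36 to 0.42). For TgCRND8 from day 70 to 150 they went from 1 to 2 with array weights, with only the arrays compared and without the low-Xist arrays. For TgCRND8 from day 80 to 150 they went from 1 to 0 with only the arrays compared, and were 0 to 1 without 1 array. The cause was not tested. Small values changed sign: Nes at day 80 was 0.0079 with the mean of all probe sets and 0.015 without the low-Xist arrays; Synm in controls from day 70 to 80 was -0.25 to 0.024 without 1 array; and the resting astrocyte mean at day 150 was 0.0116 with median centring and -0.0349 to 0.0159 without 1 array. A further 66 sign changes concerned values smaller than their standard error and were not counted as reversals. Counts of genes that passed, over all genes, went from 22 to 35 with array weights at day 150, from 7 to 4 with median centring for the mean of 3 ages, from 16 to between 9 and 27 for TgCRND8 from day 70 to 150, from 4 to between 1 and 8 for controls from day 70 to 150, and from 2 to between 1 and 5 for the change with age. Without the low-Xist arrays these counts went from 0 to 35 at day 80 and from 0 to 1 at day 70 (limma). Without the same arrays they went from 4 to 322 for TgCRND8 from day 80 to 150 (1 to 9 otherwise). For TgCRND8 from day 70 to 80 they went from 0 to 162. Each of these counts that involves day 80 rests on TgCRND8 replicates 2 and 4 of that age, the arrays least correlated with the others. Whether the growth in counts came from the arrays removed or from those left was not tested. In the main fit, which kept all arrays, 685 genes had an unadjusted p under 0.05 by limma at day 80. Arrays of 4 mice per group limit the precision, and dim probe sets such as 1453997_a_at of Nes lie below the lower quartile of the arrays.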
